A study of Danio rerio with 6 samples.

Results

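The transcription factor genes of the endoderm cascade were examined in whole AB zebrafish embryos at sphere stage, a blastula stage. They are the homeobox genes *mixl1* and *sebox*, the zinc finger genes *gata5* and *gata6*, and the SoxF genes *sox32* and *sox17*. All features whose platform gene symbol is 1 of these 6 names were taken, 12 of 45220 on the array and 6 of 14434 named genes. Each control-injected embryo had received 1 nl of water and each *ndr1*-injected embryo 50 pg of *ndr1* mRNA in the same volume, per the labels, with 3 samples in each group and RNA from about 200 embryos in each sample. The labels name no mutation or transgene. The control injection held no mRNA, so the effect of *ndr1* and that of any injected mRNA cannot be told apart. The general methods of the study give less *ndr1* mRNA and *egfp* mRNA as control, and the labels were followed here.

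In the zebrafish, the Nodal ligands Ndr1 and Ndr2 signal through activin-type receptors, the co-receptor Oep and Smad2 in cells at the margin of the blastula. The genes *mixl1* (also named *bon*), *sebox* (*mezzo*) and *gata5* (*fau*) are activated there and encode regulators that act, with Eomesa, on *sox32* (*cas*). Sox32 is required for endoderm and in turn activates *sox17*, a gene close by on the same chromosome and a general marker of endoderm cells. *sox32*, *gata5* and *gata6* are also transcribed in the yolk syncytial layer, a layer of nuclei at the surface of the yolk cell.

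Foxh1 is a forkhead partner of Smad2, and its candidate sites are sequences through which the Nodal signal can reach its target genes. For *mixl1* and *sox32* the supplementary table of Smad2-bound regions holds such words. Every word found there under the name of a gene of the set is shown, and none was found for the other genes. The letters are written as the table gives them, with no strand stated, and capitals mark the bases that all 3 words have in common.
*mixl1*, one region: ctaAaTAaACA
*mixl1*, other region: ccgAaTAcACA
*sox32*: ttgAtTAaACA
Of the 11 positions 6 were alike in all 3 words. The *sox32* word shared 8 positions with the first *mixl1* word and 7 with the second. The study found its Foxh1 sites as matches to the same known motif, so likeness among the words was set in advance. The shared letters are therefore no result about these genes. This is a description of letters, and binding was not measured on these arrays.

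Each of the 6 cascade genes had a feature on which all *ndr1*-injected values were higher. Of the 12 features 11 had all *ndr1*-injected values above all control-injected values, against 7.53% of all features, and 10 had an unadjusted p of at most 0.02 and were higher, against 1.17% of all features. The differences of the 12 features ran from 1.17-fold to 12.4-fold, with a median of 2.11 log2 units where the median over all features was -0.01. In control-injected embryos 7 of the 12 features had a mean below the array median. Among these were *sox32* 7032 (8.62) and *gata5* 38337 (7.95), which had the largest differences. Ordered from the largest increase down, 8 of the 12 stood among the first 60 of the 45220 features. No feature passed the limma fit over all features at an adjusted p below 0.05 (0% of 45220 features called), the lowest adjusted p of these genes being 0.106, although 3048 features had an unadjusted p below 0.05. At gene level, with each gene represented by its feature of highest mean signal, 3 genes or 0.0208% were called, none of them a gene of this set. An exact permutation test of 3 arrays against 3 cannot give a two-sided p below 0.1. Every feature with groups apart has that value, in either direction 5912 of the 45220 features. That 11 of the 12 features reached it is therefore the count of groups apart again and no further support. With quantile normalisation or median centring 10 of the 12 were apart and higher. The embryos were taken whole, so more cells with a transcript and more transcript per cell cannot be told apart.

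**Figure D1:**
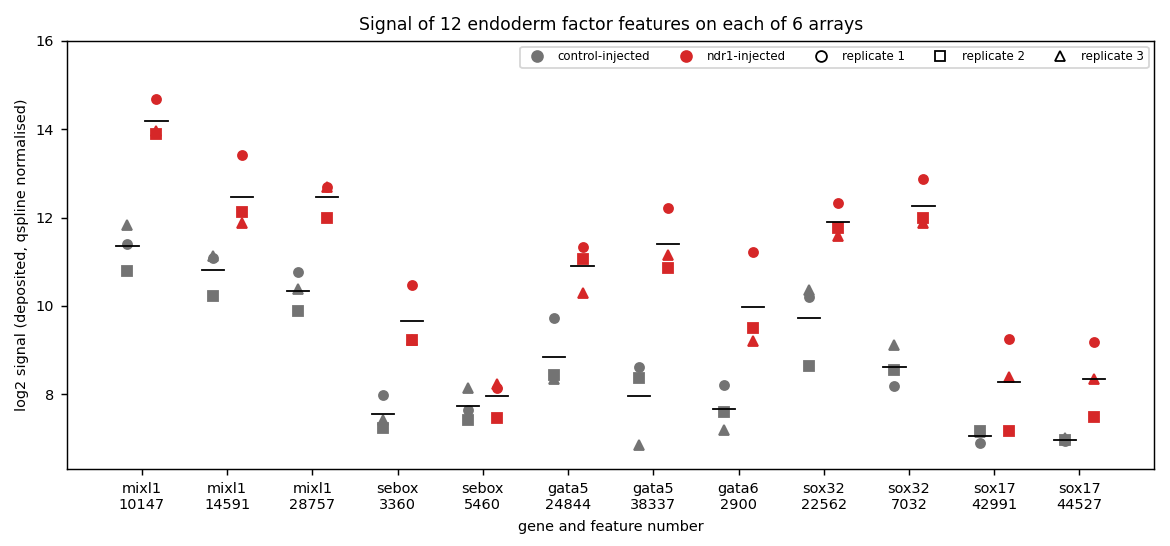
Log2 signal (vertical axis) of the 12 features of *mixl1*, *sebox*, *gata5*, *gata6*, *sox32* and *sox17* (horizontal axis, with feature numbers) on each array, control-injected in grey and *ndr1*-injected in red, with a symbol for each replicate number and a line at each group mean. The groups are apart for 11 features and overlap for *sebox* feature 5460, and *ndr1*-injected replicate 1 is the highest red point for 11 features.

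The upper step holds the Mix-type homeobox genes. *mixl1* has 3 features. The brightest, feature 10147, read 11.41, 10.80 and 11.83 in control-injected replicates 1 to 3 and 14.68, 13.89 and 13.96 in *ndr1*-injected replicates 1 to 3. The groups were separated by 2.06 log2 units between the highest control-injected and the lowest *ndr1*-injected value. The difference was 2.83 ± 0.38 (SE, n = 3 per group) or 7.11-fold, and missed the test in the limma fit over all features (adjusted p = 0.256). Feature 28757, designed to another accession of the gene, read 10.78, 9.88 and 10.38 in control-injected and 12.70, 12.00 and 12.69 in *ndr1*-injected embryos, a difference of 2.12 ± 0.35. Feature 14591 read 11.07, 10.22 and 11.12 against 13.41, 12.12 and 11.87, a difference of 1.66 ± 0.47. All 3 *mixl1* features thus had the groups apart, with the gap narrowest for feature 14591 (0.75). Their sizes were unlike, and feature 10147 minus feature 14591 differed by 1.17 between the groups (exact permutation p = 0.1, adjusted p = 0.267 over 8 pairs of features).

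The features of *sebox* gave unlike readings. Feature 3360 read 7.99, 7.23 and 7.42 in control-injected and 10.48, 9.24 and 9.23 in *ndr1*-injected embryos, a difference of 2.10 ± 0.42 (SE, n = 3 per group) or 4.29-fold. Feature 5460 read 7.64, 7.41 and 8.13 against 8.15, 7.47 and 8.24. Here the groups overlapped, the difference was 0.23 with a 95% interval from -0.56 to 1.02, and the exact permutation p was 0.5. Both features carry the same accession, and where they lie in the transcript is not known here. The first minus the second feature lay between -0.71 and 0.35 on the control-injected arrays and between 0.98 and 2.33 on the *ndr1*-injected arrays, so the features separated by 1.87 log2 units between the groups (exact permutation p = 0.1, the smallest possible, and 0.267 after adjustment over 8 pairs of features). At gene level *sebox* is represented by feature 3360, which is the brighter feature only through the *ndr1*-injected arrays, the control-injected means being 7.55 and 7.73 for features 3360 and 5460. As the mean of both features *sebox* differed by 1.17.

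Of the Gata factors, *gata5*, required for heart and endoderm, has 2 features. Feature 38337 read 8.63, 8.37 and 6.86 in control-injected and 12.22, 10.86 and 11.16 in *ndr1*-injected embryos. Every *ndr1*-injected value stood at least 2.23 log2 units above every control-injected value. The difference of 3.46 ± 0.55 (SE, n = 3 per group) or 11.0-fold ranked 8 among all features by size of increase. Feature 24844 read 9.72, 8.44 and 8.35 against 11.32, 11.06 and 10.30, a difference of 2.06 ± 0.46 with a gap of 0.58. Feature 24844 minus feature 38337 differed by -1.40 between the groups (exact permutation p = 0.2, adjusted p = 0.32 over the 8 pairs). Control-injected replicate 1 was the highest of its group for both *gata5* features. *gata6*, a closely related factor with a single feature (2900), read 8.21, 7.59 and 7.20 against 11.23, 9.50 and 9.20. The groups were apart, and *ndr1*-injected replicate 1 stood 1.73 above the next array. The difference was 2.31 ± 0.56 or 4.95-fold, and 1.68 without that array.

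*sox32*, the gene on which these factors converge, has 2 features, and the dimmer of them had the largest difference of the 12. This feature, 7032, read 8.19, 8.55 and 9.12 in control-injected and 12.88, 11.99 and 11.88 in *ndr1*-injected embryos. The gap between the groups, 2.76 log2 units, was the widest of the 12 features. The difference of 3.63 ± 0.39 (SE, n = 3 per group) or 12.4-fold ranked 7 of 45220 both by size of increase and by p (adjusted p = 0.106, limma). The brighter feature, 22562, read 10.21, 8.64 and 10.36 against 12.34, 11.75 and 11.57. It differed by 2.16 ± 0.50 or 4.46-fold, with control-injected replicate 2 lower than the other 2 controls by at least 1.57 log2 units. At gene level this was less than *mixl1* (2.83) and *gata6* (2.31). As the mean of all features of a gene *sox32* differed by 2.89, more than *gata5* (2.76), *gata6* (2.31) and *mixl1* (2.20). Feature 22562 minus feature 7032 lay between 0.09 and 2.01 in control-injected and between -0.54 and -0.24 in *ndr1*-injected embryos, a difference of -1.47 (exact permutation p = 0.1, adjusted p = 0.267 over the 8 pairs).

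*sox17*, the last step, was uneven among the *ndr1*-injected samples. In control-injected embryos both of its features lay below the lower quartile of every array (7.70 to 7.73). The control-injected means of *sebox* 3360 (7.55) and *gata6* 2900 (7.67) were below that quartile as well. Feature 42991 read 6.89, 7.16 and 7.14 in control-injected and 9.26, 7.16 and 8.39 in *ndr1*-injected embryos, so that the groups were apart by less than the last digit shown. Feature 44527 read 6.94, 6.97 and 7.00 against 9.18, 7.49 and 8.34. Both features put the *ndr1*-injected samples in the same order, with replicate 1 about 2.2 log2 units above the control-injected mean, replicate 3 above it by 1.32 and 1.37, and replicate 2 by 0.10 and 0.53. Replicate 2 was thus the closest to the control-injected level for *sox17*, while for *sox32* the same sample was 2.02 and 3.37 above the control-injected mean. The differences were 1.20 ± 0.51 and 1.37 ± 0.43 (SE, n = 3 per group), or 2.30-fold and 2.58-fold, with 95% intervals from 0.03 to 2.38 and from 0.37 to 2.37. On its brighter feature *sox17* differed by 0.95 less than *sox32* did on its own, with an exact permutation p of 0.6, and by 1.33 less with the place on the array taken out, where the exact permutation p was 0.1, the smallest possible. The injected gene *ndr1* itself read 13.8, 14.8 and 13.9 in the *ndr1*-injected replicates 1 to 3. The sample with the highest *ndr1* signal, replicate 2, was thus the one with the lowest *sox17* signal. This sample was the lowest of its group for 6 of the 12 features, those of *sox17* among them, and replicate 3 for the other 6. A relation to the *ndr1* signal was not tested, and 3 samples could not show one.

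**Figure D2:**
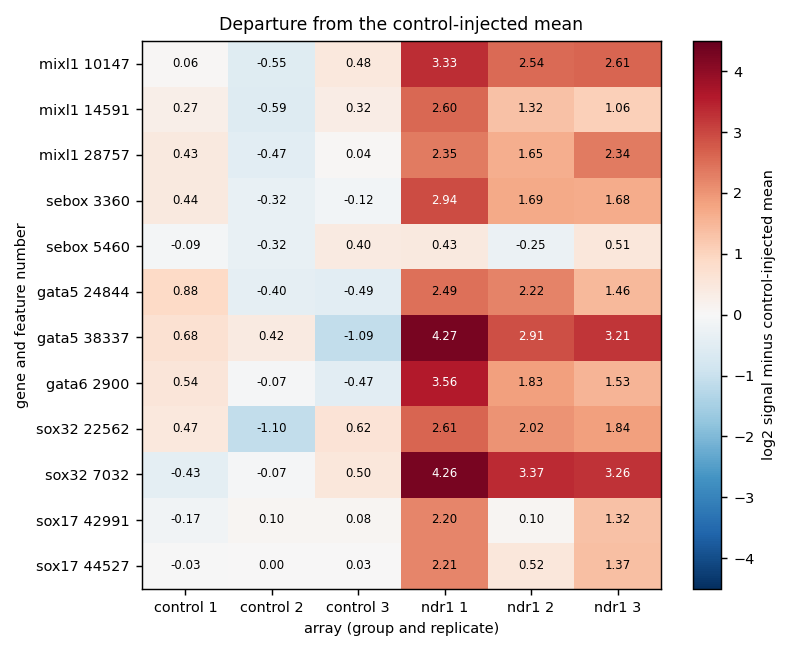
Log2 signal minus the control-injected mean of the same feature (colour and number in each cell) for 12 features (rows) on 6 arrays (columns). *sox17* stands near 0 in *ndr1*-injected replicate 2 (0.10 and 0.53) and near 2.2 in replicate 1, while *sox32* stands 1.84 to 4.26 above 0 in all 3 *ndr1*-injected samples.

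The 6 genes were highest in the same sample. *ndr1*-injected replicate 1 gave the highest value of its group for 11 of the 12 features, *mixl1*, *sebox*, *gata5*, *gata6*, *sox32* and *sox17* all among them, and the exception was *sebox* feature 5460. Its median departure from the group mean was 0.72, against -0.44 and -0.28 for replicates 2 and 3. Without this sample the median difference of the 12 features was 1.76, and 8 features were higher with an unadjusted p of at most 0.02, against 0.442% of all features. In control-injected embryos replicate 2 was the lowest for 6 features and replicate 3 the highest for 6. How many of all features were highest in *ndr1*-injected replicate 1 was not counted. Outside the set that sample was also the highest of its group at gene level for *foxa3*, *foxa*, *gata4*, *gata1b*, *acvr1ba*, *tdgf1* and *krt18a.1*. It was not the highest for *ndr1*, *foxa2*, *foxh1*, *gata2b* or *sox7*. Among the defining markers it was the highest for *mxtx1*, *mxtx2*, *krt4* and *krt5*, whose differences lay between -0.11 and 0.09, and not for *ddx4*. A peak in this sample is therefore not particular to the set.

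**Figure D3:**
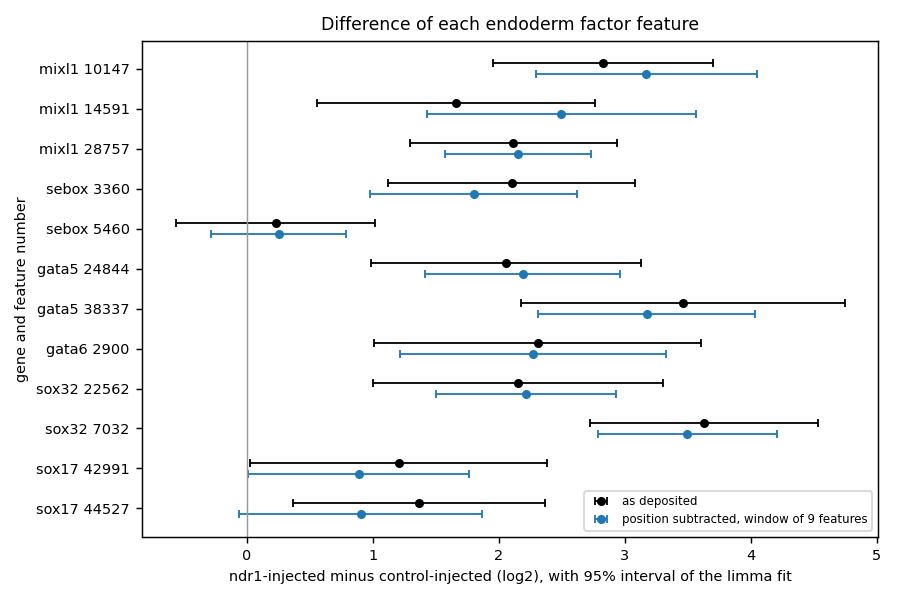
Difference between *ndr1*-injected and control-injected embryos (horizontal axis, log2) for each of the 12 features (vertical axis), as deposited in black and with the trend of array position subtracted in blue, with bars for the 95% interval of the limma fit. The intervals lie above 0 except for *sebox* feature 5460 on both scales and *sox17* feature 44527 once position was subtracted.

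Signal also varied smoothly over the surface of each array, and the values were read again after this variation had been taken out with a local median over 9 by 9 features. Then 4 features were called higher over all features (0.0619% of features called), namely *sox32* 7032 (3.50 ± 0.31, SE, adjusted p = 0.0174), *gata5* 38337 (3.17, adjusted p = 0.0435) and the *mixl1* features 28757 (2.15, adjusted p = 0.0435) and 10147 (3.17, adjusted p = 0.0483) by limma. The same 4 features were called with an intensity trend and robust variance in the fit (0.0929% called), with adjusted p from 3.5e-04 to 0.0189. Control-injected values of *sox32* 7032 drew together to between 8.58 and 8.85, and *mixl1* feature 14591 moved from 1.66 to 2.50. For *sox17* the differences were then 0.89 and 0.90, and the groups of feature 44527 overlapped, with a 95% interval from -0.06 to 1.87. No feature of *sebox*, *gata6* or *sox17* was called in this or the other 13 alternative fits.

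The genes that feed the cascade were compared next, at gene level. Of 15 measured Nodal inputs (ligands, receptors, Smads and the factors Foxh1, Eomesa, Pou5f3 and Nanog) 0 passed over all genes, 2 were higher at an unadjusted p of at most 0.02 (1.72% of genes) and 0 were lower, and the median was -0.04, or 0.26 once position was subtracted. *ndr1* differed by 3.65 ± 0.37 (SE), and injected and embryonic transcript cannot be told apart. The type I receptor gene *acvr1ba* differed by 0.77 ± 0.25, the co-receptor gene *tdgf1* (*oep*) by 0.58 and 0.13 on a brighter and a dimmer feature, and *foxh1* by -0.40 and 0.01. The brightest of 3 features of *eomesa* stood at -0.28, and at 0.59 with the place on the array taken out, and the others stood at 0.58 and 0.40.

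Of 14 genes that act downstream in endoderm, 1 passed over all genes, *foxa3*, against 0.0208% of all genes. It rose from 10.7 ± 0.30 to 14.1 ± 0.34 (SD, n = 3, adjusted p = 0.0401 in the limma fit). This call was lost when any 1 of the 6 arrays was left out. No call was lower, and the median was 0.20. At an unadjusted p of at most 0.02 in the limma fit, 3 were higher (1.72% of genes) and 0 were lower. Groups were apart and higher for 4 (8.11% of genes) and apart and lower for 1 (5.86% of genes). Only 7 of the 14 genes were above the median feature on all 6 arrays, and whether dim features could show a response was not tested. The forkhead gene *foxa2* differed by 2.29 ± 0.40 (SE) and *foxa* by 0.87 ± 0.24. *gata4*, the third member of the *gata4*, *gata5* and *gata6* group, was 0.67 ± 0.24 higher, and 0.06 with the place on the array taken out. The hairy-related gene *her5* was at -0.67 on its brighter feature and at -1.03 on the other, with the groups apart and *ndr1*-injected embryos lower on both, but did not pass the test. On their brightest features the remaining genes of the list ran from *foxa1* at -0.69 (its other feature at 0.29) to *hnf4a* at 0.46, none past the test. Dimmer features stood higher for *nkx2.7* (0.83, brightest at -0.17) and *onecut1* (0.03 to 0.94, brightest at -0.30), also not past the test.

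Relatives of the cascade genes gave values on both sides of 0. Of 9 measured SoxF, Gata and Mix-type relatives 0 passed and 0 had an unadjusted p of at most 0.02, with differences from -0.81 to 0.67 and a median of -0.07. Only 4 of the 9 were above the median feature on all 6 arrays. The lowest was the Gata gene *gata1b* (-0.81 ± 0.28, SE), and the features of the SoxF gene *sox7* were at -0.40 and 0.22. Those of *gata2b* were at -0.35 and 0.17. The Mix-type genes of the yolk syncytial layer, *mxtx1* and *mxtx2*, differed by 0.09 and -0.04, or by -0.28 and 0.49 once position was subtracted.

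**Figure D4:**
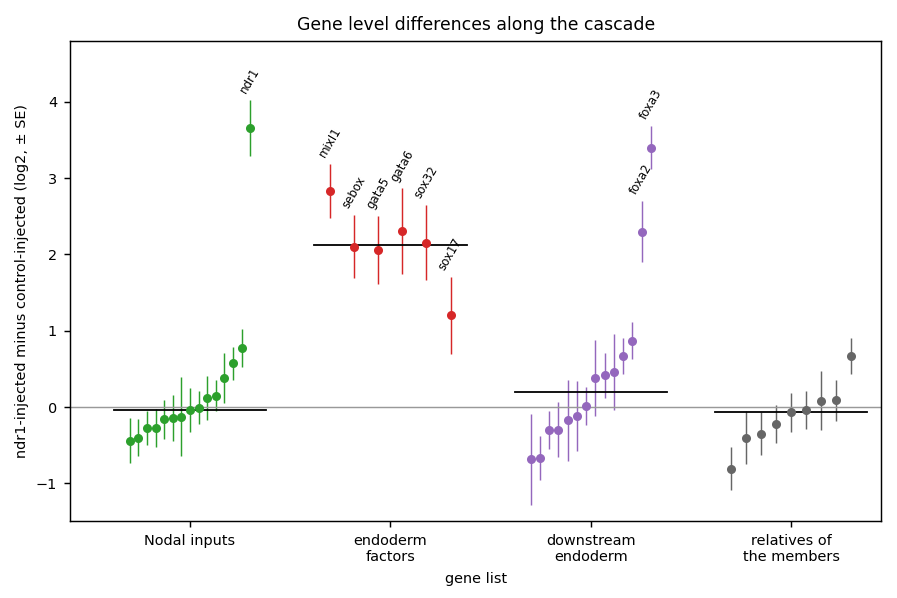
Gene level difference (vertical axis, log2, with SE bars of the limma fit) for 15 Nodal inputs, the 6 endoderm factor genes, 14 downstream endoderm genes and 9 relatives (horizontal axis), with a line at the median of each list. The 6 factor genes lie between 1.20 and 2.83, while the medians of the other lists lie between -0.07 and 0.20. *sebox* is drawn at 2.10 by feature 3360, its brighter feature only through the *ndr1*-injected arrays. As the mean of both features *sebox* differed by 1.17, which is below that range. Above the median feature on all 6 arrays were 14 of the 15 inputs, 7 of the 14 downstream genes and 4 of the 9 relatives. Single genes of those lists lie as high, *foxa2* (2.29) within the range of the factor genes and *foxa3* (3.39) and *ndr1* (3.65) above it. *gata4* is in the last 2 lists.

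Markers of other cell types were read beside these values. Over all named genes 8.11% had groups apart and higher in *ndr1*-injected embryos and 5.86% apart and lower. Of 9 measured yolk syncytial layer genes 0 passed, 1 was apart and higher, the cathepsin gene *ctsla*, and 1 apart and lower, the iron exporter gene *slc40a1* (-1.24, with other features at 0.06 and -0.41). Their summed signal ran from 15.3 to 15.6 in control-injected and from 15.7 to 15.9 in *ndr1*-injected embryos on the log2 scale, with no overlap, and most of this sum was *ctsla*, which alone averaged 15.1 and 15.5. The median difference of the list was 0.09, or -0.10 once position was subtracted. With position subtracted *ctsla* stood at 0.94 and *slc40a1* at -0.58. Of 8 enveloping layer genes 0 passed, 3 had groups apart and higher and 1 apart and lower, and the summed signal overlapped (15.0 to 15.2 against 14.8 to 15.9). On their brightest features the keratin genes *krt4* and *krt5* were at -0.06 and -0.11. The other *krt4* feature was at -0.36 and the other *krt5* features ran from -0.24 to 1.24, all with groups that overlapped. The 3 higher were the keratin gene *krt18a.1* (1.45 ± 0.34, SE, or 2.73-fold), *evpla* (0.90) and *krt17* (0.57). Once position was subtracted they stood at 0.92, 0.41 and 0.20. Of 5 germ plasm genes 0 passed, 0 were apart and higher and 2 apart and lower (*dazl* at -0.35 and *nanos3* at -0.31), with a median of -0.31, or 0.20 once position was subtracted. The features of *ddx4* were at 0.19, -0.19 and -0.26. Those of *piwil1* were at -0.31, 0.25 and 1.08, the last and dimmest with groups apart. The part of these cell types in the differences was not tested. All 7 blastula genes, among them *pou5f3*, *nanog* and *tbxta*, were above the median feature on all 6 arrays, and the files hold no calls of detection.

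The genes most like the set were sought by the root mean square distance between 6 values of a gene, taken from its control-injected mean, and the mean profile of the 6 genes, which stood 2.85, 1.73 and 1.74 above the control-injected mean in *ndr1*-injected replicates 1 to 3. The nearest of the other genes was *efnb2a*, an ephrin ligand gene, at 0.297 log2 units, where the median over all named genes was 1.6. It read 7.94, 7.70 and 8.06 in control-injected and 10.8, 9.58 and 9.04 in *ndr1*-injected embryos. The T-box gene *tbxta* (0.298), the Wnt ligand gene *wnt5b* (0.309), the glycolysis regulator gene *pfkfb3* (0.325) and the basic helix-loop-helix gene *hes6* (0.364) followed. They differed by 2.42, 1.99, 2.25 and 2.26 log2 units, none past the test. *pfkfb3* entered with feature 5891, which is its brighter feature only through the *ndr1*-injected arrays. The control-injected means were 7.74 and 7.80 for features 5891 and 35997, and feature 35997 differed by 0.30. *sebox* entered the mean profile with feature 3360 alone. Among the genes of the set, *sebox* lay at 0.0847 from the mean profile. The others lay between 0.391 (*gata6*) and 0.798 (*sox17*), farther than each of the nearest genes named above. Those nearest genes were picked for their short distance among all named genes. Their distances and the size of their differences thus follow from the choice. Each gene of the set is also a part of the mean profile. The distances therefore cannot show whether other genes are more like the set than its own genes are.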

How the data were processed

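Gene expression was measured on 6 one-colour Agilent zebrafish arrays, 3 per group. The authors labelled 15 µg of total RNA with an Alexa Fluor dye, scanned the arrays with a GenePix scanner and normalised them by qspline, and the table they deposited gives log2 values, a scale that was read from the range of 4.92 to 16.3. For background correction, flags, slides and scan days the sources used here give nothing. Array medians lay between 8.70 and 8.71, and the number of arrays limits the precision. Correlations between arrays ran from 0.836 to 0.886 within control-injected and from 0.920 to 0.926 within *ndr1*-injected samples. Over all pairs they ran from 0.82 to 0.928, so the highest was between arrays of different groups. Nothing in the labels ties a sample to a clutch of its own, and the spread behind each p-value may be technical only.

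Features were named through the platform table, 21061 with 1 symbol, 0 with several and 24159 not listed, and symbols were updated with the GRCz12tu RefSeq table by Entrez number (20133), by accession (408) or kept (520). Differences were fitted over all features, or over 14434 genes, by the moderated linear model of limma 3.58.1 (R 4.3.3), with Benjamini-Hochberg adjustment and calls at an adjusted p below 0.05. A gene was represented by its feature of highest mean signal. The cutoff of 0.02 is that stated by the study, used here on the unadjusted p. To take out the place on the array, deviations from the median array were laid on a grid 85 columns wide, the lag at which feature numbers correlated best, and their local median was removed. Scripts were tested on simulated data. The genes, lists and alternatives were chosen with earlier results of these data known. The named genes are all 12 features of the set, *ndr1*, the 4 genes of smallest p in each of 3 lists, the defining markers and the 5 genes nearest in profile. The genes *eomesa*, *her5*, *foxa1*, *hnf4a*, *nkx2.7*, *onecut1*, *ctsla*, *slc40a1*, *krt18a.1*, *evpla*, *krt17*, *dazl*, *nanos3* and *piwil1* were named after their values had been seen. The main fit did not pair samples by replicate number. Alternatives were array weights, a replicate block, median centring, quantile normalisation, robust variance with an intensity trend, removal of the dimmest 20% of features or of single arrays, local medians over windows of 9 and 25, and the mean of all features of a gene.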

Additional observations from a re-analysis of the deposited data

How the results depend on the processing

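Over 14 alternatives the 12 features kept their direction in all 168 values, and 12 of these values were called. Much of the kept direction was set in advance. The replicate block, the intensity trend and the removal of dim features leave each difference as it is. Where groups are apart, weighting arrays or leaving 1 out cannot turn the direction. The called features were *mixl1* 10147 and 28757, *gata5* 38337 and *sox32* 7032, each with an intensity trend and robust variance and with position subtracted at windows of 9 and 25. *mixl1* 14591 ranged from 1.19 without *ndr1*-injected replicate 1 to 2.50 with a window of 9. Other readings that single arrays moved were *sox17* 42991, which was 0.71 without *ndr1*-injected replicate 1 and 1.76 without replicate 2 of that group, and *sebox* 5460, which was 0.07 without control-injected replicate 2 and 0.47 without *ndr1*-injected replicate 2. *sox32* 22562 was at 1.61 without control-injected replicate 2. With single arrays removed, the median of the 12 features lay between 1.76 and 2.36. At gene level *gata5* was also called with a window of 25 (2.29, adjusted p = 0.0302), and *mixl1* in 3 alternatives.

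Counts over the array moved more. With an intensity trend and robust variance, and with windows of 9 and 25, the limma fit called 42, 28 and 37 features and 27, 16 and 24 genes, and array weights gave 5 genes. The replicate block gave 0 genes and left 10 features of the set at an unadjusted p of at most 0.02, as without it. Deviations of same-numbered samples correlated at 0.179, -0.101 and 0.04, and those of differently numbered samples at -0.256 to 0.222. So few values cannot decide whether the numbers pair the samples. Without each array in turn 0 genes were called, from 566 to 2083 features had an unadjusted p of at most 0.02, and from 8182 to 13664 features had groups apart, where fewer arrays make a gap more frequent. Among the downstream endoderm genes the call of *foxa3* was lost in the replicate block (0) and without each array (0 called), and 2 genes were called with the intensity trend and with windows of 9 and 25. Among the Nodal inputs 1 gene was called with the intensity trend, with array weights and with both windows. The causes were not tested.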
